A study of Mus musculus with 8 samples.

Results

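The folate one-carbon genes examined here were Mthfd1, Mthfd1l, Shmt1, Aldh1l1, Ftcd, Dmgdh, Sardh and Folr2, which were taken from the count table by symbol and make up 8 of its 33212 genes. Of these, 7 encode enzymes and Folr2 encodes a folate receptor, so that the set is not made of enzymes only. RNA-seq was performed on whole liver with 1 library per mouse, from 4 mice of each genotype. All mice were C57BL/6 males kept for 8 weeks on a diet without methionine and choline (the MCD diet), and their age is not given in the sources used here. The Nnmt KO mice (Nnmt LKO in the labels) were Alb-Cre::Nnmt flox/flox, in which the albumin promoter drives Cre in hepatocytes, and the controls (WT in the labels) carried the same floxed alleles as Nnmt flox/flox. Other liver cells keep Nnmt in such mice, and an effect of Cre itself and of the deletion cannot be told apart.

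Folate, as tetrahydrofolate, carries single carbon units that cells take from serine, glycine, histidine and the methyl groups of choline, and hands them to the synthesis of nucleotides and of methionine. The pathway runs in parallel in the cytosol and in mitochondria, which exchange serine, glycine and formate. The liver is a main site of it and is where the breakdown of histidine and of choline-derived methyl groups meets folate. Nnmt, the deleted gene, encodes nicotinamide N-methyltransferase, which uses S-adenosylmethionine, the methyl donor made from methionine. The question here was whether the folate genes of the liver differed between genotypes on the MCD diet.

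Counts per library summed to between 75020072 and 87934362, at which 3 counts stand for at most 0.04 CPM before TMM factors. All other CPM values are counts scaled to the library total, with TMM factors. Nnmt was at 57.1 ± 23.1 CPM in Nnmt KO mice and 138.8 ± 60.5 CPM in control mice (SD, n = 4 each), with every Nnmt KO mouse below every control mouse (log2 fold change -1.28, standard error 0.33, adjusted p = 0.121 by edgeR's quasi-likelihood test and 0.00458 by DESeq2's Wald test). The margin was narrow, with the highest Nnmt KO library at 83 CPM and the lowest control library at 84.9 CPM. Such a lack of overlap was found for 8.16% of all tested genes. Nnmt KO library a stood apart, with a TMM factor of 1.21 against 0.876 to 1.06 in the others and the lowest albumin, at 48510 CPM. Control library c had the next lowest albumin, at 58230 CPM, and the other 6 libraries had 71130 to 89490 CPM. At an unadjusted p under 0.05 by edgeR, stellate cell markers were higher in Nnmt KO mice for 3 of 7 genes, cholangiocyte markers for 1 of 5, and hepatocyte markers were lower for 1 of 9. The corresponding numbers were 0 of 15 for macrophage markers, 0 of 6 for endothelial markers and 0 of 5 for lymphocyte markers. Over all tested genes, 5.44% were higher and 7.21% lower in Nnmt KO mice at that threshold. In whole liver, fewer cells of a type and less RNA per cell cannot be told apart.

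The regulatory sequence next to the member with the smallest p, Ftcd, is shown first, followed by the stretch that Dmgdh shares with a neighbouring gene. The 250 bases before the RefSeq start of Ftcd (chr10:76575398-76575647, plus strand, GRCm38.p6) have a GC content of 56% and 3 CpG sites. The capitals mark a TATAAA motif, searched on the sense strand.
Ftcd upstream: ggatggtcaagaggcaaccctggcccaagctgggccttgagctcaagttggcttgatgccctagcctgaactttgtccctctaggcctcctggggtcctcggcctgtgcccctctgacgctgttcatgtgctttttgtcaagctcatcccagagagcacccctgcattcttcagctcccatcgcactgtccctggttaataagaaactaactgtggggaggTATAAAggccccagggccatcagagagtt
Dmgdh lies head to head with Bhmt2 on chromosome 13. The 130 bases between the starts of these genes (chr13:93674303-93674432, plus strand, GRCm38.p6) have a GC content of 70.8% and 6 CpG sites. The capitals mark the reverse complement of a GGGCGG motif, searched on both strands.
between Bhmt2 and Dmgdh: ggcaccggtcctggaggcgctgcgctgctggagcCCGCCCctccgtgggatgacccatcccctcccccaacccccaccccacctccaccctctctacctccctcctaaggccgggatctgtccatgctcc
RefSeq's promoter windows were available for all 8 members, with 9 windows of 250 bases before and 50 after a start. Motifs were searched only in the 250 bases before the start, for the members and for all genes. TATAAA was found in 1 of these 9 windows, that of Ftcd, against 7.59% of 32851 windows of all genes. GGGCGG was in 5 of the 9 windows against 32.7% of all windows. CCAAT, searched on both strands, was in 3 of the 9, those of Aldh1l1, Mthfd1 and Shmt1, against 33.8%. TGATGNAA, searched on both strands, was in 0 of the 9 windows and in 3.45% of all. These matches describe letters only.

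All 8 genes had enough counts to be tested, among 15291 genes tested in all. None passed an adjusted p of 0.05 by edgeR's quasi-likelihood test, DESeq2's Wald test or limma-voom, and Ftcd, 1 of the 8, had an unadjusted p under 0.05 by each of the 3 tools, with the lower level in Nnmt KO mice. Over all tested genes, edgeR's test gave an unadjusted p under 0.05 for 12.7% (7.21% lower and 5.44% higher in Nnmt KO) and an adjusted p under 0.05 for 0.307%. These shares were 14.2% and 3.35% by DESeq2 and 13.3% and 0.196% by limma-voom. The share of the members, 1 of 8, is therefore near the background. The members' log2 fold changes (Nnmt KO minus control) were negative for 6 genes and positive for 2, with a median of -0.11 beside 0.02 over all tested genes. The 4 Nnmt KO libraries overlapped the 4 control libraries for each of the 8 members, whereas 8.16% of all tested genes had no overlap.

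**Figure D1:**
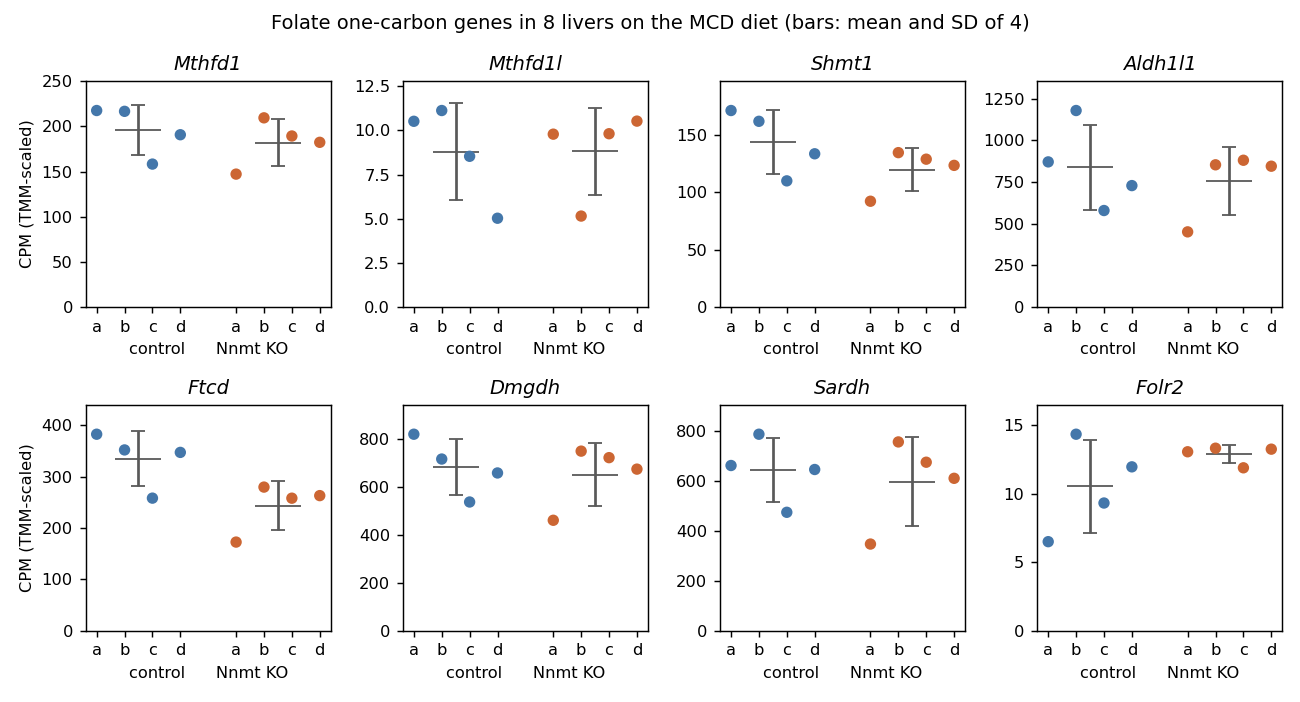
Each panel plots one gene's CPM (TMM-scaled, axis from 0) in the control libraries a to d (blue) and the Nnmt KO libraries a to d (orange), with the mean and the SD of 4. The mean of Ftcd is 244 CPM in the Nnmt KO and 335 CPM in the control panel, and in 6 of the 8 panels Nnmt KO library a and control library c are the lowest points of their genotypes.

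The genes were ordered by their level per kilobase of exon in control livers. Dmgdh was at 200.2 ± 34.6 and Aldh1l1 at 186 ± 56.6 CPM per kilobase (SD, n = 4), followed by Sardh at 118 ± 23.7 and Ftcd at 105 ± 16.8 CPM per kilobase. Mthfd1 stood at 44.1 ± 6.30 and Shmt1 at 37.1 ± 7.18 CPM per kilobase. Folr2 at 6.81 ± 2.19 and Mthfd1l at 1.99 ± 0.620 CPM per kilobase were the lowest. The neighbours Dmgdh and Aldh1l1, Sardh and Ftcd, and Mthfd1 and Shmt1 differed by less than the larger SD of each pair. The enzymes that act on choline-derived methyl groups, histidine and surplus formyl units were therefore the most abundant of these transcripts, and the mitochondrial formate enzyme the least.

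Ftcd encodes formiminotransferase cyclodeaminase, which carries out the last step of histidine breakdown by passing its one-carbon unit to tetrahydrofolate. The gene (ENSMUSG00000001155) lies on chromosome 10 from 76575648 to 76590338, on the plus strand of GRCm38, just after the upstream sequence printed above, and overlaps no other annotated gene. Its level was 173, 280, 258 and 263 CPM in Nnmt KO libraries a to d, and at 383, 352, 258 and 347 CPM in control libraries a to d. The 3 control libraries a, b and d were above all Nnmt KO libraries, and control library c lay among them. The Nnmt KO mean of 244 ± 48.1 CPM was 72.7% of the control mean of 335 ± 53.6 CPM (SD, n = 4 each). The log2 fold change was -0.46 (standard error 0.17, 95% interval -0.84 to -0.08) and edgeR's p was 0.0221 before and 0.294 after adjustment over all genes. The difference thus did not pass the adjustment. Over 15 alternative fits it ranged from -0.57 to -0.33 with adjusted p-values from edgeR, DESeq2 or limma between 0.139 and 0.671, and it lost its unadjusted p under 0.05 in 1 of them, without control library a (-0.37, edgeR's unadjusted p = 0.0735). Without both Nnmt KO library a and control library c it was -0.43 (edgeR's unadjusted p = 0.00416, adjusted p = 0.139). These libraries were chosen after the values were seen, and control library c was the only control among the Nnmt KO values. The smaller p without them is therefore no separate support for a difference.

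Histidine reaches Ftcd through Hal, Uroc1 and Amdhd1, the enzymes of the preceding steps of its breakdown. Of these 3 genes, 3 had a negative log2 fold change, from -0.40 to -0.15, and 0 passed an unadjusted p of 0.05 by edgeR. The summed CPM of 9 pericentral hepatocyte markers ran from 7614 to 12950 in Nnmt KO libraries and from 12760 to 20110 in control libraries, with 2 markers lower and 1 higher at an unadjusted p under 0.05. Cyp2e1, a cytochrome P450, made up most of that sum, and without it the other 8 markers summed to 2919 to 3599 CPM in Nnmt KO and 2905 to 3515 CPM in control libraries. The sum of 8 periportal markers, among which is Hal, ran from 6244 to 10120 in Nnmt KO and from 6228 to 11150 in control libraries, with 1 marker higher and 0 lower. At that threshold, 7.21% of all tested genes were lower and 5.44% higher. The part of the pericentral and periportal markers in the Ftcd values was not tested. The tested genes with the profile most like that of Ftcd over the 8 libraries, by the root mean square distance of standardised log2 CPM, were Gamt (distance 0.165), which makes creatine with a methyl group of S-adenosylmethionine, and Szrd1 (distance 0.184). Gamt was at 60.1 ± 18.9 CPM in Nnmt KO and 104.9 ± 29.0 CPM in control mice (log2 fold change -0.80, standard error 0.26, adjusted p = 0.215 in edgeR's test). Szrd1 was at 84.4 ± 8.05 CPM in Nnmt KO and 98.8 ± 4.99 CPM in control mice (log2 fold change -0.23, standard error 0.10, adjusted p = 0.394 in edgeR's test). Both were picked for a profile like that of Ftcd, so their lower means in Nnmt KO mice follow from the choice.

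Since 6 of the 8 members were lowest in Nnmt KO library a and in control library c, Ftcd was also set against other members within each library, where the scaling between libraries plays no part. The choice of these ratios was made after the values were seen, so no p is given. The log2 ratio of Ftcd to Dmgdh was -1.42, -1.42, -1.48 and -1.36 in Nnmt KO libraries a to d, against -1.10, -1.02, -1.06 and -0.92 in control libraries a to d. All Nnmt KO libraries were below all control libraries, by 0.39 between the means, with an SD of 0.052 in Nnmt KO and 0.075 in control mice. The Nnmt KO ratios also lay below the control ratios without overlap for Ftcd to Mthfd1 (means 0.41 and 0.77), to Shmt1 (1.01 and 1.22) and to Folr2 (4.22 and 5.04). They overlapped for Ftcd to Sardh, Aldh1l1 and Mthfd1l. Among all 28 pairs of members, 7 pairs did not overlap (25%), 4 of them with Ftcd and 4 with Shmt1 (the pair of both counted in each), beside 7.7% of all pairs of tested genes. The 28 pairs share genes and are not independent. Of the 7 pairs, 4 hold Ftcd, which was picked by its p in these same libraries. The 25% is therefore no separate support for a difference. Set against each of the other 15290 tested genes, the ratio of Ftcd did not overlap between genotypes for 14.9%, a share that exceeds that of 88.8% of tested genes. Ftcd was singled out by its p in these same libraries, so this share is no separate support for a difference. The same share was 5.51% for Shmt1, 5.83% for Folr2 and between 1.03% and 4.34% for the other 5 members, beside a median of 4.99% over tested genes.

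**Figure D2:**
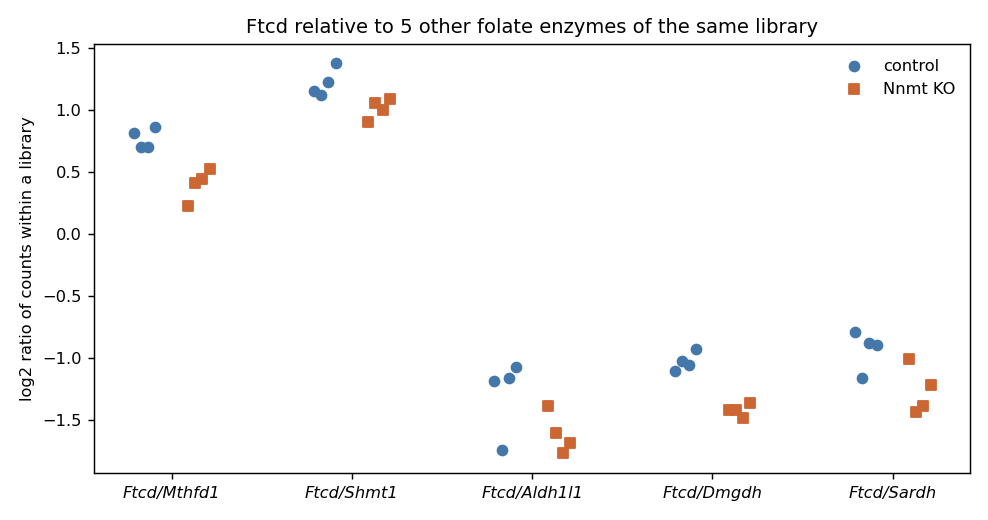
Points give the log2 ratio of Ftcd counts to those of Mthfd1, Shmt1, Aldh1l1, Dmgdh and Sardh within each control (blue circles) and Nnmt KO (orange squares) library, in the order a to d. The Nnmt KO squares lie wholly below the control circles for Mthfd1, Shmt1 and Dmgdh (mean log2 ratios to Dmgdh of -1.42 and -1.03), and the ranges meet for Aldh1l1 and Sardh.

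Shmt1 encodes the cytosolic serine hydroxymethyltransferase, which moves the carbon of serine to tetrahydrofolate. The gene (ENSMUSG00000020534, chromosome 11, 60788104 to 60811718, minus strand) was at 92.2, 135, 129 and 124 CPM in Nnmt KO libraries a to d, and at 171, 162, 110 and 134 CPM in control libraries a to d. Control libraries a and b were the highest of the 8, while the other controls lay within the range of the Nnmt KO libraries. Its log2 fold change was -0.27 (standard error 0.16, 95% interval -0.63 to 0.09, adjusted p = 0.530 in edgeR's test). Without control library c it was -0.38 with an unadjusted p of 0.0347 (adjusted p = 0.320 by edgeR), the 1 fit of 15 that took it past 0.05. The end of Shmt1 overlaps Smcr8, on the opposite strand, by 184 bases, and Smcr8 had at most 3841 counts in a library against 8432 to 14203 for Shmt1.

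Mthfd1 encodes the cytosolic trifunctional enzyme that interconverts formyl-, methenyl- and methylenetetrahydrofolate. The gene (ENSMUSG00000021048, chromosome 12, 76255298 to 76319803, plus strand) was at 147, 209, 189 and 182 CPM in Nnmt KO libraries a to d, and at 218, 217, 158 and 191 CPM in control libraries a to d. The genotypes overlapped over most of their ranges. The log2 fold change was -0.11 (standard error 0.14, 95% interval -0.42 to 0.21, adjusted p = 0.80 in edgeR's test).

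Mthfd1l encodes the mitochondrial synthetase that releases formate for use in the cytosol. Its gene (ENSMUSG00000040675, chromosome 10, 3973118 to 4167081, plus strand) was at 9.79, 5.15, 9.82 and 10.5 CPM in Nnmt KO libraries a to d, and at 10.5, 11.1, 8.54 and 5.03 CPM in control libraries a to d. Each genotype had 1 library near 5 CPM and 3 between 8.54 and 11.1 CPM. The log2 fold change was 0.00 (standard error 0.27, 95% interval -0.59 to 0.60, adjusted p = 0.997 in edgeR's test), so that neither a fall nor a rise by 0.5 on the log2 scale is outside the interval.

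Aldh1l1 encodes the cytosolic dehydrogenase that removes surplus formyl units as CO2. The gene (ENSMUSG00000030088, chromosome 6, 90486427 to 90600203, plus strand) was at 451, 853, 881 and 845 CPM in Nnmt KO libraries a to d, and at 871, 1179, 579 and 729 CPM in control libraries a to d. Nnmt KO libraries b to d lay close together within the control range, and library a was below every other library. The log2 fold change was -0.15 (standard error 0.25, 95% interval -0.70 to 0.41, adjusted p = 0.852 in edgeR's test) and 0.03 without Nnmt KO library a.

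Dmgdh and Sardh encode the mitochondrial dimethylglycine and sarcosine dehydrogenases, which strip the methyl groups of choline-derived dimethylglycine and of sarcosine in turn and load them on tetrahydrofolate. Dmgdh (ENSMUSG00000042102, chromosome 13, 93674433 to 93752833, plus strand) was at 461, 750, 723 and 675 CPM in Nnmt KO libraries a to d, and at 821, 717, 538 and 659 CPM in control libraries a to d. Sardh (ENSMUSG00000009614, chromosome 2, 27188393 to 27248337, minus strand) was at 348, 757, 676 and 611 CPM in Nnmt KO libraries a to d, and at 662, 788, 475 and 646 CPM in control libraries a to d. For both genes, Nnmt KO libraries b to d lay within the control range, and library a was below it. The log2 fold change was -0.07 for Dmgdh (standard error 0.18, 95% interval -0.47 to 0.33, adjusted p = 0.908 in edgeR's test) and 0.07 without Nnmt KO library a. That of Sardh was -0.11 (standard error 0.23, 95% interval -0.61 to 0.41, adjusted p = 0.889 in edgeR's test) and 0.08 without that library.

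For most of these enzymes, 1 library of each genotype held the low values. Nnmt KO library a was the lowest of its genotype and control library c the lowest of its own for 6 of 8 members (75%), all but Mthfd1l and Folr2, where 9.15% of all tested genes showed both. The pattern was not particular to the members. The hepatocyte markers Alb, Ttr, Cps1, Serpina1c, Hnf4a and Cyp2f2 showed both as well, and Apoa1, Tat and Cyp2e1 did not. The hepatocyte marker sum was also lowest in these libraries, at 67290 CPM in Nnmt KO library a and 83560 CPM in control library c, against 97620 to 129900 CPM in the other 6. Its part in the members' values was not tested. Without Nnmt KO library a, 4 members had a negative and 4 a positive log2 fold change, and Ftcd was still at -0.33 (edgeR's unadjusted p = 0.0401, adjusted p = 0.347).

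The shared stretch printed above allowed Dmgdh to be compared with Bhmt2, which encodes a methyltransferase that makes methionine from S-methylmethionine. Bhmt2 was at 259 ± 43.6 CPM in Nnmt KO and 262 ± 58.3 CPM in control mice (log2 fold change -0.02, standard error 0.18, adjusted p = 0.979 in edgeR's test). The log2 ratio of Dmgdh to Bhmt2 was 1.24, 1.48, 1.33 and 1.24 in Nnmt KO libraries a to d, against 1.55, 1.13, 1.52 and 1.38 in control libraries a to d. Its range of 0.42 over the 8 libraries was wider than the difference of -0.07 between the genotype means. Reads of the antisense genes that overlap Dmgdh, Aldh1l1 and Sardh (AW495222, Gm15756 and Sardhos) were at most 35, 13 and 3 counts in a library.

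Cytosolic and mitochondrial enzymes of the same step were compared by their log2 ratio within a library, as were the demethylases Dmgdh and Sardh, in 4 pairs. The mean ratio of Shmt1 to Shmt2, its mitochondrial counterpart, was -0.75 ± 0.15 in Nnmt KO and -0.78 ± 0.17 in control mice (SD, n = 4 each, two-sided exact permutation p = 0.771). Mthfd1 to Mthfd1l was 4.41 ± 0.64 against 4.53 ± 0.48 (exact permutation p = 0.60), and Dmgdh to Sardh was 0.16 ± 0.18 against 0.10 ± 0.19 (exact permutation p = 0.629). Aldh1l1 to Aldh1l2, the mitochondrial formyltetrahydrofolate dehydrogenase, was 7.70 ± 1.30 against 7.03 ± 0.46 (exact permutation p = 0.371). After adjustment over the 4 pairs every p of the permutation test was 0.771, so none of the 4 ratios was called different between genotypes. With 4 mice of each genotype, this does not show that the ratios were equal. The Aldh1l1 ratio turned on Nnmt KO library a, at 5.90 where the other Nnmt KO libraries were at 7.65 to 8.80 and the controls at 6.41 to 7.47. Without it the difference between the means was 1.28 in place of 0.68 (exact permutation p = 0.0286, the smallest that 3 mice against 4 allow). The other Nnmt KO libraries were all above the controls, so leaving out library a set this p at its smallest. It was not adjusted over the 4 pairs. Aldh1l2 itself was at 7.54, 2.42, 4.38 and 1.88 CPM in Nnmt KO libraries a to d, and at 4.91, 7.75, 6.82 and 5.76 CPM in control libraries a to d (log2 fold change -0.63, standard error 0.37, adjusted p = 0.510 in edgeR's test).

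Folr2 encodes folate receptor beta, a membrane protein that takes up folate and is known from tissue macrophages rather than hepatocytes. The gene (ENSMUSG00000032725, chromosome 7, 101839988 to 101857194, minus strand) was at 13.1, 13.3, 11.9 and 13.3 CPM in Nnmt KO libraries a to d, and at 6.50, 14.3, 9.32 and 12.0 CPM in control libraries a to d. The Nnmt KO libraries lay close together, within the wider range of the controls. The coefficient of variation was 5.18% in Nnmt KO and 32.1% in control mice. Its log2 fold change was 0.29 (standard error 0.21, 95% interval -0.16 to 0.74, adjusted p = 0.595 in edgeR's test). Without control library b it was 0.48 with an unadjusted p of 0.0314 (adjusted p = 0.420 by edgeR), and without control library a it was 0.14.

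The macrophage and Kupffer cell markers were all detected, with none of 15 at 0 in any library. Of the 15, 14 had a higher mean in Nnmt KO mice, where 7995 of all 15291 tested genes had a positive log2 fold change. At an unadjusted p of 0.05 by edgeR, 0 of the 15 passed. The median log2 fold change was 0.24 beside 0.02 over all tested genes. The 15 markers moved partly together between libraries and are not independent. Their summed CPM ran from 1068 to 1722 in Nnmt KO and from 819 to 1599 in control libraries. Control library a, the lowest for Folr2, was also the lowest control for 10 of the 15 markers. Control library b, the highest control for Folr2, was the highest for 3 of the 15, and control library d for 10. The part of macrophage content in the Folr2 values was not tested. The tested genes with profiles most like that of Folr2 were Gapdhs (distance 0.27) and Igdcc4 (distance 0.305), at 0.534 ± 0.244 and 1.77 ± 1.82 CPM in control mice.

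**Figure D3:**
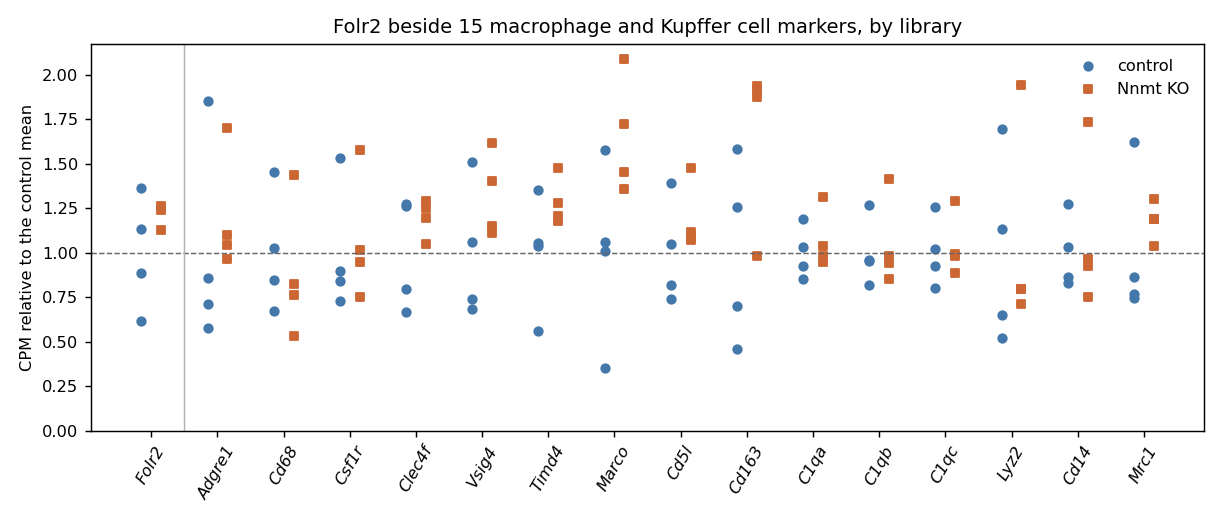
Points give the CPM of Folr2 and of 15 macrophage and Kupffer cell markers in each library divided by the gene's control mean (dashed line at 1), with control libraries as blue circles and Nnmt KO libraries as orange squares. The 4 Nnmt KO values of Folr2 sit between 1.13 and 1.26 and the controls between 0.617 and 1.36.

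Around Folr2 on chromosome 7, most tested genes had a negative log2 fold change, unlike Folr2. Within 1 Mb on each side, 24 of 27 other tested genes had a negative log2 fold change, 12 of them with an unadjusted p under 0.05 by edgeR against 7.21% of all tested genes, and 0 were higher at that threshold. The median over the 27 genes was -0.25, and Folr2 had the rank 2 from the top among them. Within 5 Mb, 79 of 113 genes were negative, with 40 lower and 1 higher at an unadjusted p under 0.05 by edgeR. Over all tested genes, 7296 of 15291 were negative, with 7.21% lower and 5.44% higher at that threshold. Genes that lie side by side may not be independent, and the cause of this pattern was not tested. The neighbouring receptor gene Folr1, 1136 bases away, had too few counts to be tested.

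The other genes of folate metabolism were described from 7 lists with 38 genes, of which 37 were tested. At an unadjusted p under 0.05 by edgeR, 3 of the 37 were lower and 0 higher in Nnmt KO mice, and 0 passed the adjustment. Over all tested genes the shares were 7.21% lower and 5.44% higher, so that the pathway count was not above the background. Negative log2 fold changes were found for 25 genes and positive ones for 12, with a median of -0.11. By list, the genes below 0.05 numbered 0 of 5 for mitochondrial folate enzymes, 1 of 8 for the use of folate in methylation and nucleotide synthesis, 0 of 5 for folate carriers and retention, 1 of 4 for the glycine cleavage system, 0 of 3 for histidine breakdown, 0 of 9 for the choline methyl route around Dmgdh and Sardh, and 1 of 3 for serine synthesis.

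**Figure D4:**
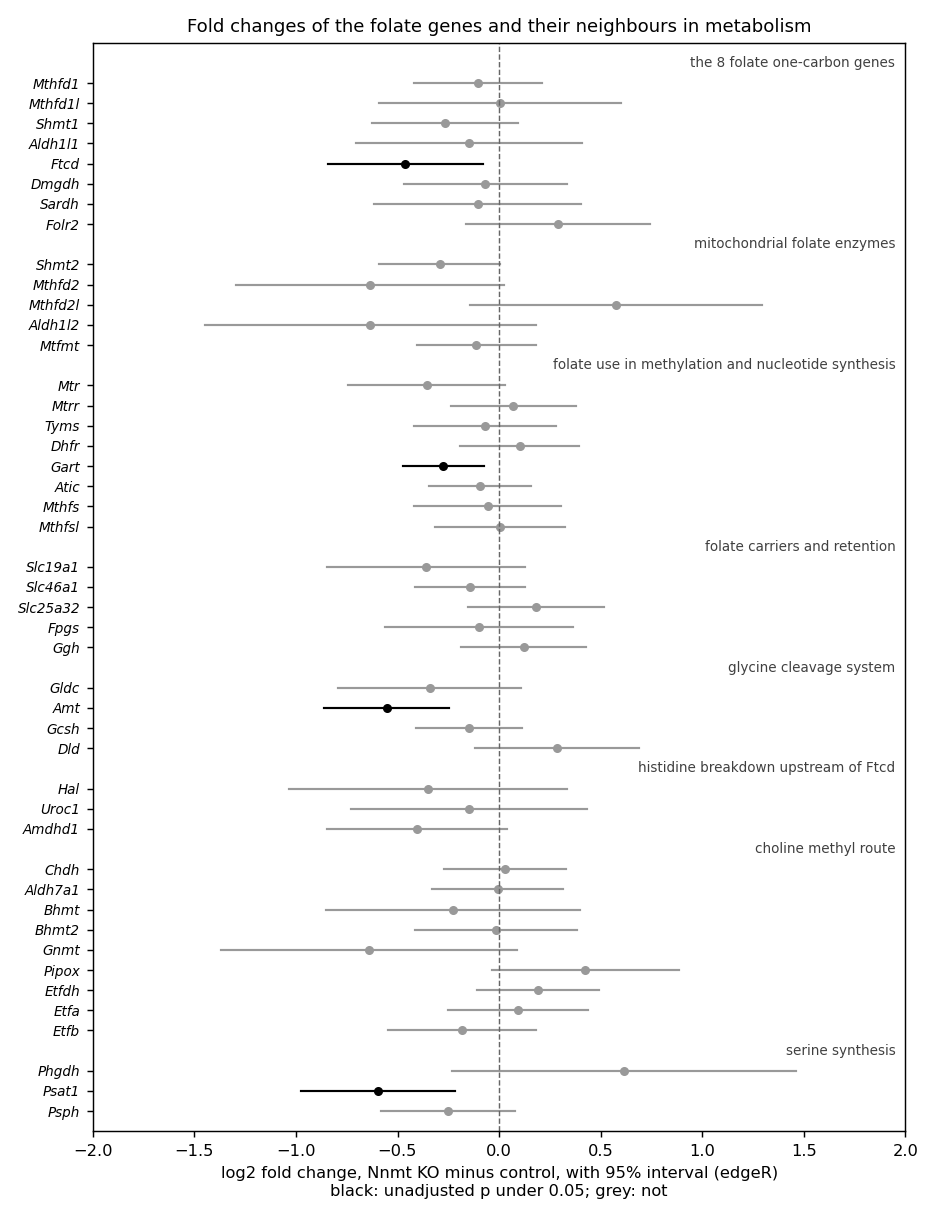
Points give log2 fold changes (Nnmt KO minus control) and bars their 95% intervals from edgeR, for the 8 members and 37 other folate pathway genes in 7 lists, with black for an unadjusted p under 0.05. The black points are Ftcd, Gart, Amt and Psat1, all to the left of 0, and none passed the adjustment.

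Of these 3 genes, Amt and Psat1 had the largest changes relative to their spread. Amt encodes the aminomethyltransferase of the glycine cleavage system, which passes a carbon of glycine to tetrahydrofolate. It was at 20.1, 24.8, 19.98 and 22.7 CPM in Nnmt KO libraries a to d, and at 34.9, 28.4, 26.1 and 39.1 CPM in control libraries a to d, without overlap (log2 fold change -0.55, standard error 0.14, adjusted p = 0.116 in edgeR's test). Psat1, an aminotransferase of serine synthesis, was at 37.9, 35.4, 32.6 and 27.2 CPM in Nnmt KO libraries a to d, and at 41.4, 39.4, 53.7 and 66.9 CPM in control libraries a to d, also without overlap (log2 fold change -0.60, standard error 0.17, adjusted p = 0.169 in edgeR's test). DESeq2's Wald test called both, with an adjusted p of 0.0247 for Amt and 0.04995 for Psat1, where it called 3.35% of all tested genes. Neither gene lost its unadjusted p under 0.05 in any of the 15 alternative fits.

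Gart, an enzyme of purine synthesis that uses formyltetrahydrofolate, was at 42.4 ± 1.84 CPM in Nnmt KO and 51.3 ± 3.18 CPM in control mice, without overlap (log2 fold change -0.27, standard error 0.090, adjusted p = 0.232 in edgeR's test). It lost its unadjusted p under 0.05 in 2 of the 15 alternative fits, at 0.144 by library size only and at 0.0547 without control library a (both edgeR). Shmt2 was at 201 ± 24.0 CPM in Nnmt KO and 246 ± 34.1 CPM in control mice (log2 fold change -0.29, standard error 0.14, edgeR's unadjusted p = 0.0523), close to the value of -0.27 for its cytosolic counterpart Shmt1. Libraries without overlap were found for 3 of the 37 genes, beside 8.16% of all tested genes.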

How the data were processed

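Liver RNA-seq of 4 Nnmt KO and 4 control mice on the MCD diet was used. Per the submitters' processing notes, the authors used HISAT2 and StringTie with the genome build mm10. The deposited values are whole-number counts for each gene that were not normalized. Versions, annotation and the use of strand are not given in the sources used here, so reads of overlapping genes could be shared. Counts of 1 to 6 were found 3647, 1703, 2128, 2639, 2128 and 1365 times, unevenly, so 1 count need not be 1 read pair. The labels name the NEBNext Ultra kit and the paper KAPA HyperPrep. The columns carry the genotype without a mouse number, so libraries were lettered a to d in column order. No 2 libraries of a genotype were copies (chi-square per degree of freedom 42.1 to 266.8). The labels do not say that the mice were unrelated, and p-values set a difference against a spread estimated from these mice only.

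Genes were filtered by filterByExpr (minimum count 10), scaled by TMM and tested with edgeR 4.0.16 (robust quasi-likelihood, R 4.3.3), with Benjamini-Hochberg adjustment over all 15291 tested genes, after the scripts were tested on simulated data. The paper's tool, DESeq2 (1.42.0), was an alternative, as were limma-voom (3.58.1), other scalings, no filter and each library left out. Added after the data were seen were counts divided by 4, the exclusion of 2 libraries, the other member ratios and the pericentral sum without Cyp2e1. Also not set out beforehand were the tally of lowest libraries, the windows around Folr2 and the macrophage pattern by library. The same holds for the ratios of Dmgdh to Bhmt2 and of members to all tested genes. Ratios used counts plus 0.5 and two-sided exact permutation tests. Members and lists were chosen with earlier results of these data known. Named are the 8 members, pathway genes with an unadjusted p under 0.05 or in a pair, Nnmt, the 2 profiles nearest to Ftcd and Folr2, and genes beside a member. One gene of the pathway lists is not reported here and is left out of their counts. The hepatocyte markers, Cyp2e1 among them, were named after their values were seen. Positions and exon lengths are from GENCODE's M21 annotation of GRCm38, matched by identifier for 32059 of 33212 genes, and sequences from RefSeq (GRCm38.p6). Of the table's genes, 12414 had 0 counts throughout. The high-fat diet, metabolite and protein experiments were not analysed here.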

Additional observations from a re-analysis of the deposited data

Results flagged for a closer look

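Among 32 sets of 4 libraries (one genotype each, for the 8 members, Gart, Amt, Psat1, Nnmt and the 4 ratios), 3 held a library far from the other 3 by Dixon's criterion, where chance alone gives about 1 in 20, or 1.6. Aldh1l1 was at 451.2 CPM in Nnmt KO library a, with the other Nnmt KO libraries at 845 to 880.7 CPM, and this gap made up 0.917 of the range of the 4. Mthfd1l was at 5.154 CPM in Nnmt KO library b, with the others at 9.791 to 10.53 CPM (0.862 of the range). The log2 ratio of Mthfd1 to Mthfd1l was 5.243 in control library d, with the other controls at 4.211 to 4.37 (0.846 of the range), and Mthfd1l was at 5.03 CPM in that library.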

How the results depend on the processing

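No paired analysis was possible because the columns of the count table carry no mouse number. Members with an unadjusted p under 0.05 numbered 1 in the reported fit and in the 7 fits with all libraries or without 2 of them. They ranged from 0 to 2 with one library left out: 0 without control library a, 2 without control library b (Ftcd and Folr2) and 2 without control library c (Shmt1 and Ftcd), where 8.06%, 10.2% and 14.3% of all tested genes passed that threshold. The number with an adjusted p under 0.05 was 0 in every one of the 15 alternatives. Other pathway genes with an unadjusted p under 0.05 numbered 3 of 37 (12.7% of all tested genes), 7 by library size only (9.44%), 6 by DESeq2's Wald test (14.2%), 5 by limma-voom (13.3%), 11 without both Nnmt KO library a and control library c (8 lower, 3 higher, 15% of all tested genes), and 3 to 10 with one library left out. The 10 came without Nnmt KO library a (6 lower, 4 higher, 13.3% of all tested genes), and 8 without control library c (7 lower, 1 higher, 14.3%). With one library left out, log2 fold changes ran from -0.19 to 0.19 for Mthfd1l, -0.29 to 0.07 for Aldh1l1, -0.167 to 0.067 for Dmgdh and -0.239 to 0.083 for Sardh, so that their signs are not settled. Mthfd1l was at -0.058 without both Nnmt KO library a and control library c. The differences of log2 ratios ran from -0.042 to 0.093 for Shmt1 to Shmt2, from -0.429 to 0.121 for Mthfd1 to Mthfd1l, from -0.019 to 0.135 for Dmgdh to Sardh and from 0.311 to 1.278 for Aldh1l1 to Aldh1l2, the last value without Nnmt KO library a. The cause of these changes was not tested. By library size only, the median log2 fold change of all tested genes was 0.07 in place of 0.02. With 4 mice a genotype, the widest 95% interval of a member, that of Mthfd1l, ran from -0.59 to 0.60.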
